A study of Mus musculus with 12 samples.

Results

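High endothelial venule (HEV) cells are the cuboidal endothelial cells of the lymph node venules through which lymphocytes leave the blood. They were taken here from 6 single-cell libraries of mouse lymph node endothelium by the transcripts of 2 enzymes that define them: Fut7, the fucosyltransferase that completes sialyl Lewis X, and Chst4, the sulfotransferase that makes the 6-sulfo form of that sugar. A cell was kept with at least 1000 UMIs (unique molecular identifiers, 1 per captured transcript), at least 500 genes and at most 10% mitochondrial UMIs. It counted as endothelial with at least 2 UMIs of Pecam1 and Cdh5 together and none of the leukocyte genes Ptprc, Cd79a and Cd3e. It counted as an HEV cell with at least 2 UMIs of Fut7 and Chst4 together and none of Prox1, the regulator of lymphatic identity. The rule found 1834 HEV cells among 28289 endothelial cells and 50017 cells of all kinds. The members were chosen by measured UMIs of Fut7, Chst4, Pecam1, Cdh5, Prox1 and the leukocyte genes, so levels of these genes describe the choice and are not a finding. Glycam1 was not used to choose cells, because it was present in free RNA. The cells were set against 25433 endothelial cells of the same libraries with no UMI of Fut7 or Chst4, called other endothelial cells here.

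HEV cells carry sulfated, fucosylated sugars on mucin-like proteins such as GlyCAM-1, CD34 and podocalyxin, and L-selectin on naive lymphocytes binds them so that the cells roll along the wall. The chemokine CCL21 then activates lymphocyte integrins, which bind ICAM-1, and the enzyme autotaxin (Enpp2) makes lysophosphatidic acid that helps the cells cross the wall. The mature HEV state depends on continued lymphotoxin beta receptor signalling, and in an inflamed node these vessels divide and enlarge while their mucin and chemokine output changes.

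All mice were C57BL/6, 7 to 10 weeks old, carried floxed alleles of the autophagy gene Atg12 (ATG12 fl/fl) and were given tamoxifen 5 times. The label CDH5 CreER positive marks mice whose tamoxifen-inducible Cre recombinase is driven by the vascular cadherin gene, and so acts in endothelium at large and not in HEV cells alone. Mice with the negative label had the same floxed alleles and tamoxifen without Cre. The shaved abdomen was painted with vehicle (acetone and olive oil) or with 4% oxazolone, a contact sensitizer, and nodes were taken 3 or 7 days after oxazolone. Each of the 6 combinations of label and treatment gave 1 library, and the number of mice behind a library was not stated in the sources used here. CD45-positive cells had been removed with magnetic beads before flow sorting. Throughout, paired values give the Cre-negative library first and the Cre-positive library second. Levels are UMIs per 1000000 UMIs (CPM), summed over the HEV cells of a library.

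The 6 libraries held 45437986 to 76186801 UMIs, and their HEV cells 2440018 to 6274696. Median depth per HEV cell was 9693 to 13178 UMIs, and per other endothelial cell 3629 to 5156 UMIs. Pan-endothelial genes summed to 4964 to 6380 CPM in HEV cells and to 7507 to 8232 CPM in other endothelial cells. Marker sums of T cells (1.72 to 11.3 CPM), B cells (5.39 to 62.9 CPM), myeloid cells (10.6 to 60.2 CPM) and fibroblasts (0.319 to 2.33 CPM) were low in HEV cells, and Cd3e and Cd79a were at 0 by the rule. No 2 libraries shared more than 31 cell barcodes. The libraries differed in the sex of their cells: Y-linked genes summed in HEV cells to 179 and 247 CPM with vehicle, 77.0 and 119 CPM at day 3, and 92.6 and 87.3 CPM at day 7. Xist, the RNA of the inactive X chromosome, was at 2.44 CPM in the vehicle Cre-positive library and at 199 to 357 CPM in the other libraries, so 5 libraries held RNA of both kinds and 1 stood apart. Y-linked RNA thus moved with treatment, higher with vehicle than at either day, and its part in the treatment results was measured only as far as given beside them.

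HEV cells made up a small share of the endothelial cells, and the share varied as much between labels as between treatments. It was 4.62% (exact 95% interval 4.04 to 5.25) and 6.07% (5.39 to 6.80) with vehicle, 8.12% (7.30 to 8.99) and 4.62% (4.10 to 5.18) at day 3, and 10.5% (9.65 to 11.4) and 5.24% (4.56 to 6.00) at day 7. These intervals cover counting error only. The 2 oxazolone libraries labelled Cre-negative had the highest shares, and the interval of each oxazolone library labelled Cre-positive overlapped that of the vehicle Cre-negative library. Against the vehicle library of the same label (5.39 to 6.80), the day 3 Cre-positive interval (4.10 to 5.18) lay lower and that of day 7 overlapped. The share depends on the sort and on depth: with every cell thinned to 2000 UMIs before the rule was applied, it was 1.66 and 2.11% with vehicle, 2.84 and 1.69% at day 3, and 3.69 and 1.52% at day 7, with the same 2 libraries highest.

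Most HEV cells were found through Fut7. Both enzymes were detected in 46.6 and 47.8% of HEV cells with vehicle, 67.9 and 60.2% at day 3, and 53.9 and 39.1% at day 7, and Chst4 alone in at most 27 cells of a library. The threshold cut through a gradient. Ackr1, the atypical chemokine receptor of venules, was at 6.79 to 17.6 CPM in Prox1-negative endothelial cells with no UMI of the 2 enzymes, 51.8 to 116 CPM in those with 1 UMI, 83.8 to 175 CPM in those with 2 and 227 to 342 CPM in those with 4 or more.

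Beside other endothelial cells, HEV cells were rich in the mucin Glycam1, the chemokine Ccl21a, the venular receptor Ackr1 and the selectins Sele and Selp, and poor in capillary and arterial transcripts. Because members were chosen inside this contrast, these levels are a description without a test. A log2 ratio of at least 1 in 6 of 6 libraries was met by 275 of 15155 genes (1.81%), and one of at most -1 by 1343 genes (8.86%). HEV cells were deeper, and with both classes thinned to 2000 UMIs per cell the counts were 289 and 665. Against reference cells with no Prox1 UMI they were 379 and 986. Ackr1 (ENSMUSG00000037872, chromosome 1, 173331886 to 173333750, minus strand, on GRCm38 as are all gene positions here) was at 198 and 219 CPM with vehicle, 307 and 284 CPM at day 3, and 209 and 226 CPM at day 7 in HEV cells and at 6.45 to 15.3 CPM in other endothelial cells. Its median log2 ratio was 4.34 (range 4.00 to 5.13). Glycam1 (ENSMUSG00000022491, chromosome 15, 103562759 to 103565081, minus strand) had a median log2 ratio of 4.81 (range 3.96 to 5.23), and Ccl21a, the ligand of CCR7 on lymphocytes, one of 5.85 (range 5.58 to 7.28). E-selectin (Sele) and the 25-hydroxycholesterol synthase Ch25h had median ratios of 3.26 and 2.98, and Enpp2 one of 1.43. Of 12 homing genes, 4 passed this fold upward (Ccl21a, Enpp2, Ch25h and Ackr1) and 2 passed it downward (Cxcl12 and Ackr3). Of 6 mucin scaffolds, Glycam1 passed it upward and Podxl downward, and the list's median was -0.46. Of the enzymes that build the L-selectin ligand and were not in the rule, Gcnt1, which starts core 2 branches, and Chst2, a second 6-O-sulfotransferase, passed this fold, with median ratios of 2.43 and 1.38. The other 8 measured enzymes did not.

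Further transcripts concentrated in HEV cells came from outside the ligand pathway. The ubiquitin-like gene Ubd (median log2 ratio 4.63), the thyrotropin receptor Tshr (5.29), the prostaglandin D synthase Ptgds (5.55), the secreted Bpifb5 (5.62), the cytokine Tnfsf15 (4.59) and Nxph1 (3.95) were all higher in 6 of 6 libraries. Ubd was at 1593 and 1906 CPM with vehicle, 3296 and 2576 CPM at day 3, and 2219 and 1518 CPM at day 7 in HEV cells. The day 3 values were the highest of each label, and Ubd was not called at day 3 (log2 difference 0.75, SE 0.22, adjusted p = 0.083). The 10 lowest genes by the naming rule were Hbb-bs, Hs6st3, C1qtnf7, Hba-a1, Foxp2, Hba-a2, Pdpn, Sema3d, Prr16 and Msr1. They include haemoglobin genes and Pdpn of the lymphatic list. HEV cells had no Prox1 UMI by the rule, while the reference held lymphatic cells, so low lymphatic transcripts describe the choice and are not a finding. Of 6 measured genes of the lymphatic list, 4 were lower by the fold rule and 1, Ccl21a, was higher. Members of the gene lists on the low side included the fatty acid transporter Cd36 (-5.50), the lipase anchor Gpihbp1 (-4.15) and the tight junction gene Cldn5 (-3.87). The VEGF receptor Kdr (-1.70) and podocalyxin (Podxl, -2.39) were also low. In the capillary list 5 of 6 measured genes were lower by the fold rule in every library, and in the arterial list 7 of 8. In the venous list 0 of 5 were higher by this rule and 1, Bmp4, was lower, with a median of -1.10. The venous sum was lower in HEV cells in every library (303 to 396 CPM, beside 386 to 515 CPM in other endothelial cells). The median of all 15155 genes was -0.40, so a ratio is read against that value. Madcam1, the mucosal addressin, was low in HEV cells (0.696 to 18.1 CPM) and in other endothelial cells (17.4 to 59.2 CPM).

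**Figure D1:**
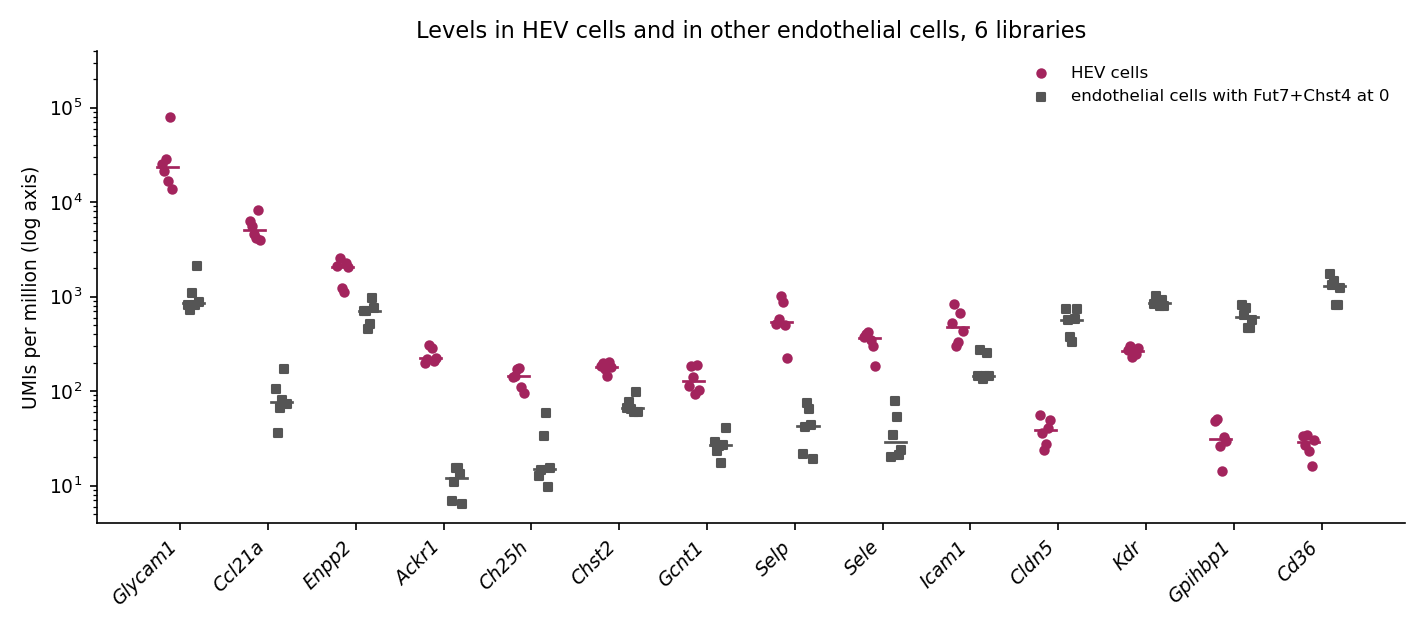
Levels of 14 genes (CPM, log axis) in HEV cells and in other endothelial cells, 1 point per library and a line at the median of 6. Glycam1, Ccl21a and Ackr1 lie higher in HEV cells in every library, and the capillary genes Cd36 and Gpihbp1 lie lower.

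Glycam1 varied widely between cells and between libraries, and no treatment difference was called. Its level in HEV cells was 25484 and 21415 CPM with vehicle, 28517 and 16823 CPM at day 3, and 79318 and 13629 CPM at day 7. The day 7 Cre-negative library stood far above the rest and the day 7 Cre-positive library was the lowest, so the treatments overlapped. Its fitted differences from vehicle were not called (log2 difference -0.13, SE 0.46, adjusted p = 0.893 at day 3, and log2 difference 0.64, SE 0.49, adjusted p = 0.981 at day 7). Among cells, the median share of a cell's UMIs that were Glycam1 was 0.330 and 0.272% with vehicle, 0.524 and 0.250% at day 3, and 1.09 and 0.178% at day 7. The 10% of cells with the highest shares held 59.1 to 68.6% of the Glycam1 UMIs of a library. Cells in which Glycam1 exceeded 5% of UMIs were 31.5% of HEV cells in the day 7 Cre-negative library and 4.46 to 16.1% elsewhere. Free RNA carried the same transcript: Glycam1 was at 1338 to 16480 CPM in barcodes of 10 to 100 UMIs. At 2000 UMIs per cell it was detected in 67.8 to 83.4% of HEV cells and in 3.23 to 33.9% of B-like cells, which do not make it (median unthinned depth 2856 to 3501 UMIs).

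**Figure D2:**
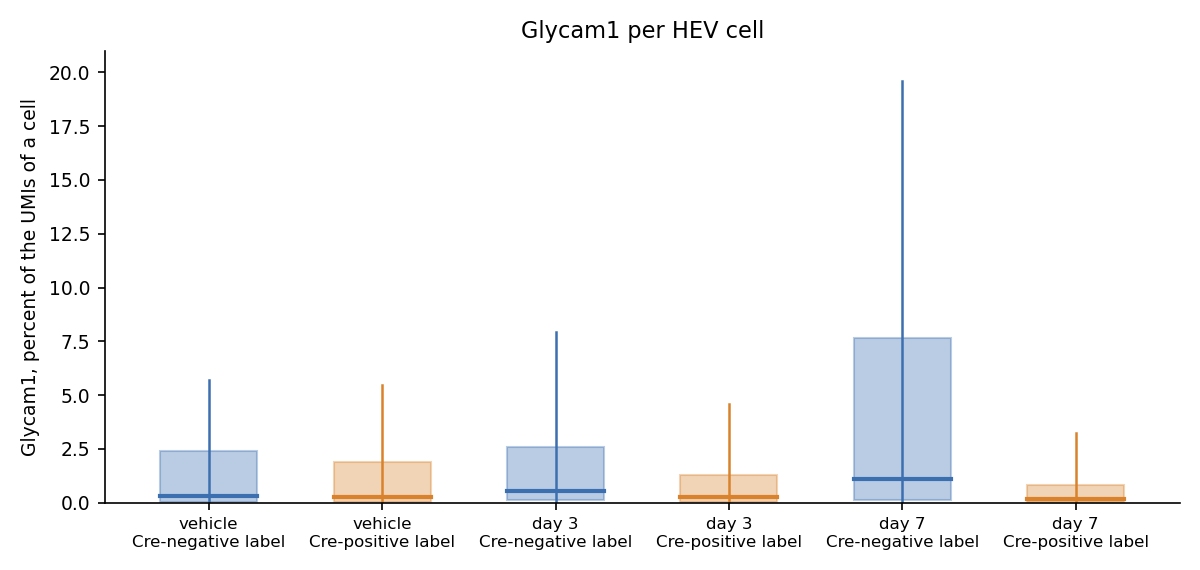
Glycam1 as a percent of each HEV cell's UMIs in the 6 libraries, with the box at the quartiles, the line at the median and whiskers at the 10th and 90th percentiles. The day 7 Cre-negative library has the highest median (1.09%) and the day 7 Cre-positive library the lowest (0.178%).

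Among the scaffold and enzyme transcripts of the L-selectin ligand, Cd300lg was the only one called at day 3 in the fit of all 6 libraries. None of 10 measured enzymes was called at day 3 or day 7 by edgeR's quasi-likelihood test with Benjamini-Hochberg adjustment, beside 5.21% and 0.0% of all genes. Of 6 scaffolds 1 was called at day 3. These counts moved with the libraries: without the vehicle Cre-negative library 3 enzymes and 2 scaffolds were called lower and 1 scaffold higher at day 3, and 1 enzyme lower at day 7. Without either day 7 library 1 scaffold was called higher and 1 lower at day 3. Fits with a library left out call other shares of all genes than 5.21% and 0.0%, so their counts are not read against these shares. Gcnt1 ranged over 93.8 to 188 CPM, Chst2 over 143 to 202 CPM and B3gnt3, which extends core 1 chains, over 40.7 to 58.0 CPM. Among the scaffolds, Cd34 was at 500.1 to 595 CPM and Podxl at 44.8 to 73.8 CPM. Cd300lg is also in the capillary list, where it and Gpihbp1 were called lower at day 3 (2 of 6, beside 2.11% of all genes). Cd300lg (nepmucin), which also carries the ligand, was at 436 and 439 CPM with vehicle, 196 and 191 CPM at day 3, and 379 and 386 CPM at day 7. Its day 3 libraries lay below all 4 others, by a log2 difference of -1.15 from vehicle (SE 0.14, adjusted p = 0.0116), and it was higher at day 7 than at day 3 (log2 difference 1.01, SE 0.14, adjusted p = 0.0302). Of HEV cells thinned to 2000 UMIs, it was detected in 52.5 and 56.4% with vehicle, 35.5 and 32.5% at day 3, and 50.7 and 54.5% at day 7, and in at most 1.07% of B-like cells. Its day 3 call was lost without the day 3 Cre-negative library, in cells with a Y-linked UMI and with the Y-linked term. Its call between day 7 and day 3 was lost without the day 3 Cre-negative, day 3 Cre-positive or day 7 Cre-negative library and in cells with a Y-linked UMI.

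At day 3 after oxazolone, the genes called higher in HEV cells included those of cell division, cholesterol synthesis, protein folding and 2 CXCR3 chemokines, and the genes called lower included early response genes and class II presentation genes. In the additive fit 581 of 11150 genes (5.21%) were called at day 3, 346 higher (3.1%) and 235 lower (2.11%). Of 4 Y-linked genes, 3 (Eif2s3y, Kdm5d and Uty) were among those called lower, with a median log2 difference of -1.185. The calls thus hold the sex mix of the libraries along with treatment. The fit shared 1 estimate of spread over the 6 libraries, with 2 residual degrees of freedom, and each p-value rests on the assumption that a treatment moved both labels alike. The count moved with the libraries in the fit. It fell without either day 3 library and rose without the vehicle Cre-negative or either day 7 library. Each fit with a library left out has 1 residual degree of freedom and 1 library in a group. Its estimate of spread thus changes as well, and its count does not measure the part of that library alone. Without the vehicle Cre-positive library, which had little Xist, there were 570 calls, 368 of them among the 581. With the summed Y-linked level as a further term, 14 genes were called, none among the 581. That term left 1 residual degree of freedom and raised the median SE of the day 3 difference from 0.218 to 0.639. In cells with a Y-linked UMI alone 87 genes were called, 75 of them among the 581. Of the 20 genes with the largest changes by the naming rule, 16 were called without the day 3 Cre-negative library, 19 without the day 3 Cre-positive and 19 without the vehicle Cre-positive library, and 17 in cells with a Y-linked UMI. With the Y-linked term 0 of the 20 were called and 15 had the same direction. A gene described as called or not called refers to the fit of all 6 libraries, and most list counts below are followed by their range over the 6 fits with 1 library left out. Those fits call other shares of all genes than the fit of all 6 libraries. Their list counts are thus not read against 5.21%, 3.1% or 2.11%.

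Cell division genes had the most calls of any list. Of 18 in the cell cycle list, 14 rose (beside 3.1% of all genes) and none fell, with a median log2 difference of 1.98 beside 0.00 for all genes. Birc5, a subunit of the chromosomal passenger complex, was at 7.38 and 19.8 CPM with vehicle, 87.3 and 89.3 CPM at day 3, and 14.2 and 32.8 CPM at day 7. The 2 day 3 libraries were the highest, and the vehicle Cre-negative library the lowest (log2 difference 2.80, SE 0.31, adjusted p = 0.00813). Ccnb2, a cyclin of mitosis, was at 3.88 and 8.70 CPM with vehicle, 35.6 and 43.2 CPM at day 3, and 7.49 and 13.1 CPM at day 7, again with both day 3 libraries above all others (log2 difference 2.69, SE 0.26, adjusted p = 0.00782). Stmn1, which destabilizes microtubules, was at 40.8 and 90.5 CPM with vehicle, 241 and 281 CPM at day 3, and 67.6 and 165 CPM at day 7 (log2 difference 2.13, SE 0.24, adjusted p = 0.00934). Top2a, which untangles replicated DNA, Cdk1, the mitotic kinase, and Ube2c, a ubiquitin conjugating enzyme of mitotic exit, rose by log2 2.07, 1.64 and 3.02, the last from 2 UMIs in the vehicle Cre-negative library. Outside the list, Pclaf, Cks1b, Cks2 and Cenpa were also among the 10 largest rises. Of HEV cells thinned to 2000 UMIs, Mki67 or Top2a was detected in 4.98 and 5.86% with vehicle, 10.7 and 12.2% at day 3, and 4.21 and 5.45% at day 7. Without thinning the shares were 14.8 and 14.5% with vehicle, 33.9 and 29.6% at day 3, and 11.5 and 18.8% at day 7. B-like cells, which can divide themselves, had 0.503 to 8.40% when thinned. In other endothelial cells the day 3 pair was also the highest (8.77 and 11.6%, beside 1.21 to 3.40% in the other libraries, thinned). Without the cells that held Mki67 or Top2a, 3 of the 18 genes were called. With 1 library left out 7 to 17 were called higher and none lower, the fewest without the day 3 Cre-negative library. The Y-linked term left none called, with a median of 2.37.

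Ccnb2 is shown as the example of a promoter from this group (RefSeq, GRCm38.p6, chr9:70421505-70421804, minus strand, printed in the gene's direction, 250 bases before the start to 50 after). Capitals mark CCAAT, the box bound by NF-Y, and TTTGAA, the core of the cell cycle homology region.
Ccnb2: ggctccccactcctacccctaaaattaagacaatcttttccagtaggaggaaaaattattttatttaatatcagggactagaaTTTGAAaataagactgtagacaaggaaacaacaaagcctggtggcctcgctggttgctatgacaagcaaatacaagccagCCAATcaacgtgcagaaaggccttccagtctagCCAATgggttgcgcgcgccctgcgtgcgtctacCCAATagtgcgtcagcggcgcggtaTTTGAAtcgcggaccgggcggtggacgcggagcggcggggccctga
Read on both strands, CCAAT was in 10 of 13 promoters of the cell cycle genes that rose and had a window (76.9%) and in 37.4% of all 32851 windows. TTTGAA was in 6 of 13 (46.2%) and in 17.9% of all windows. The 2 motifs do not overlap in this window, and a match is a description of letters, not of binding.

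Among 11 measured chemokines and cytokines, Cxcl9, Cxcl10 and Il6 rose (beside 3.1% of all genes) and none fell, and the list's median was -0.03. Cxcl10 (ENSMUSG00000034855, chromosome 5, 92346638 to 92348889, minus strand), a ligand of CXCR3 on activated T cells, was at 47.8 and 90.1 CPM with vehicle, 245 and 279 CPM at day 3, and 43.8 and 57.4 CPM at day 7. The fitted rise was the largest of the 11 (log2 difference 1.99, SE 0.20, adjusted p = 0.00782). Cxcl9, a ligand of the same receptor, was at 68.0 and 96.4 CPM with vehicle, 229 and 182 CPM at day 3, and 34.7 and 75.8 CPM at day 7 (log2 difference 1.40, SE 0.27, adjusted p = 0.0303), and Il6 at 12.4 and 16.4 CPM with vehicle, 36.6 and 28.5 CPM at day 3, and 10.4 and 10.7 CPM at day 7 (log2 difference 1.2, SE 0.23, adjusted p = 0.0302). In all 3 genes both day 3 libraries lay above the other 4. Of HEV cells thinned to 2000 UMIs, Cxcl10 was detected in 4.07 and 4.76% with vehicle, 15.2 and 12.9% at day 3, and 4.78 and 6.93% at day 7, and in at most 1.33% of B-like cells. Of 18 interferon-stimulated genes, 1 was called (beside 5.21% of all genes), the GTPase Gbp2 (log2 difference 0.93, SE 0.17, adjusted p = 0.0287), and 16 of the 18 had a positive difference, with a median of 0.32. No class I presentation gene of 9 was called, and 1 was without the vehicle Cre-negative library. Among the 11 chemokines and cytokines, 1 was called higher without the day 3 Cre-negative library and 3 without any other library, while 0 to 3 were called lower, the most without the vehicle Cre-negative library. Interferon-stimulated genes called higher with 1 library left out numbered 0 to 9, 0 without either day 3 library and 9 without the vehicle Cre-negative library. The Y-linked term left none called in either list, and the interferon list's median was then -0.71.

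The Cxcl10 promoter is shown because this gene had one of the largest changes in HEV cells and carries a match to an interferon response element (RefSeq, GRCm38.p6, chr5:92348840-92349139, minus strand, printed in the gene's direction). Capitals mark GAAA, any 2 bases and GAAA, a match that begins 213 bases before the start, and no other motif is marked in it.
Cxcl10: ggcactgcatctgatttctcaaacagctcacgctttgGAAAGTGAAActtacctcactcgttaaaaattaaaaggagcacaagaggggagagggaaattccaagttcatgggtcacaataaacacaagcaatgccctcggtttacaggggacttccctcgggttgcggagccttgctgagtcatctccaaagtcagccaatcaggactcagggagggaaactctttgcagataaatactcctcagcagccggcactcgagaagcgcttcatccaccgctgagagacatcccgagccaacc
Read on both strands, this motif was in 9 of 14 promoters of the interferon-stimulated list (64.3%), in 3.44% of all windows and in 0 of 16 promoters of the cell cycle list. GGG, any 2 bases and TTTCC, a form of the NF-kB site, was in 0 of 14 and 1 of 16 promoters of these lists and in 1.6% of all windows. This form is narrow: similar letters in the Cxcl10 window, gggaaattcc and gggacttccc, do not match it. The count is thus no statement that NF-kB sites are absent.

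**Figure D3:**
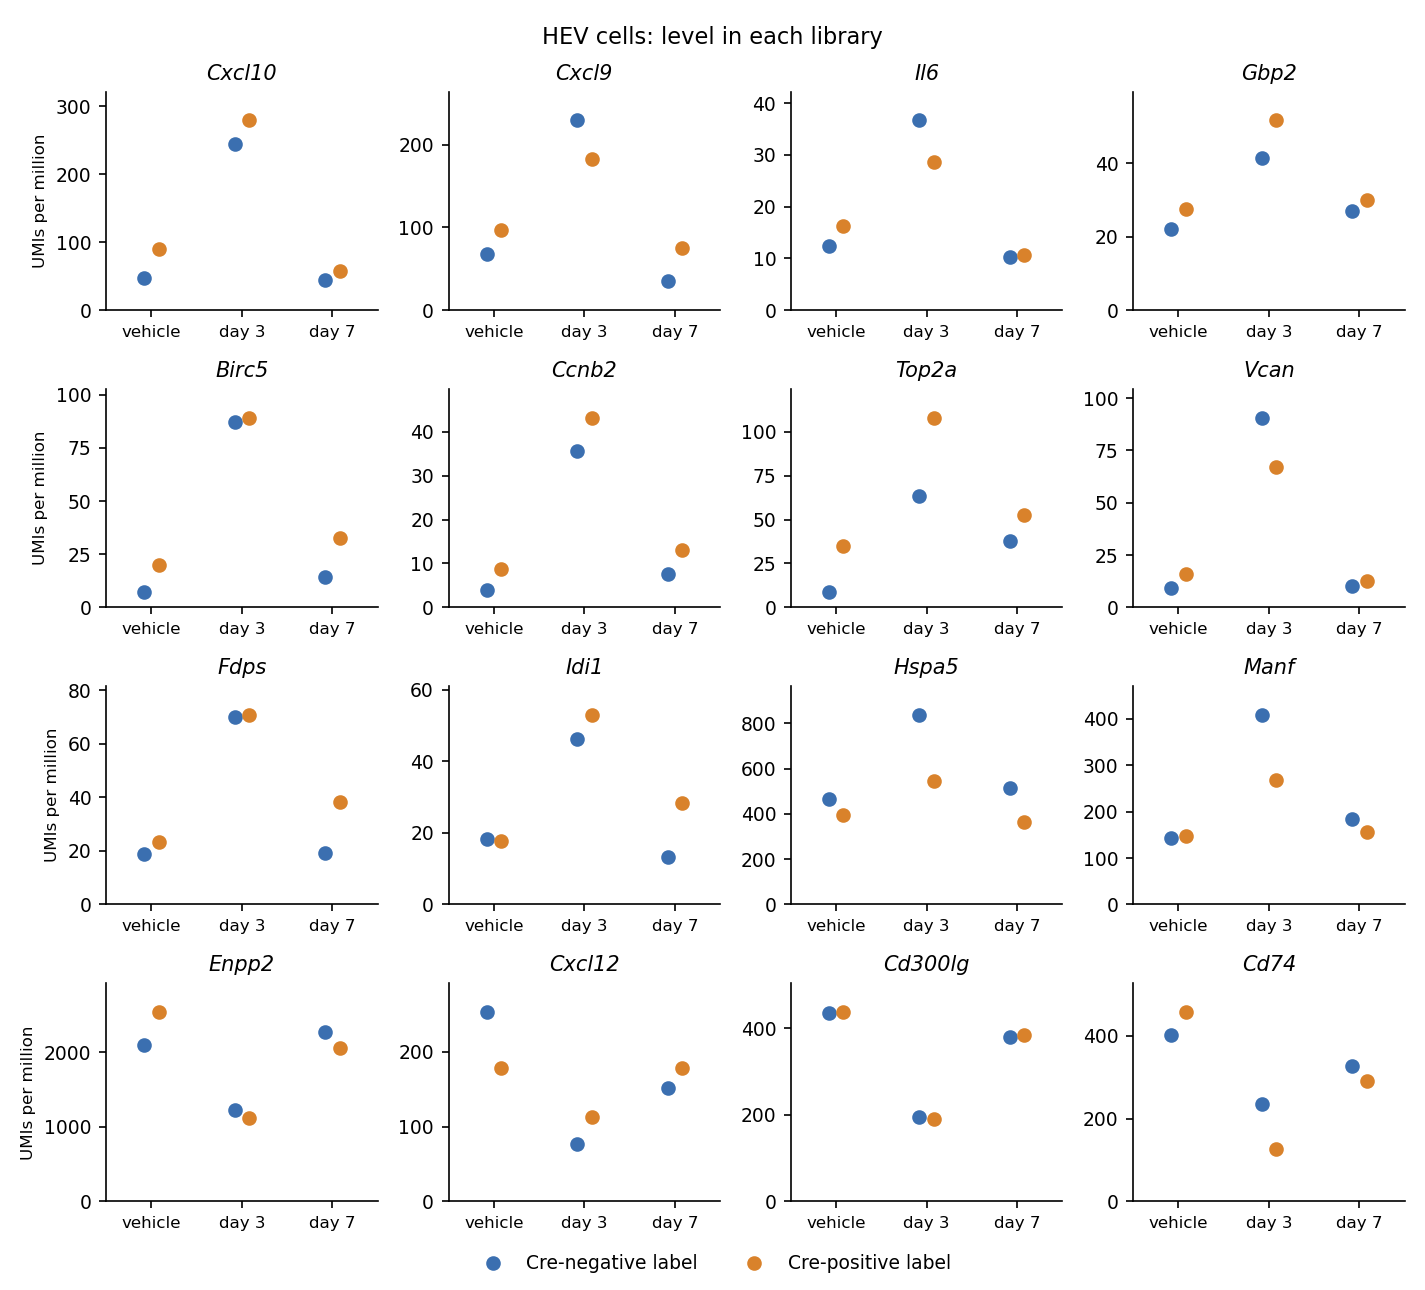
Levels of 16 genes in HEV cells (CPM) by treatment, 1 point per library for the 2 labels. For Cxcl10, Vcan and Birc5 both day 3 libraries lie above the other 4, and for Enpp2 and Cd300lg they lie under them.

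Measured genes of the homing list, which leaves out Cxcl9 and Cxcl10, were called lower at day 3 or were not called. In the homing list Enpp2, Cxcl12 and Apoe fell (3 of 10, beside 2.11% of all genes) and none rose (median -0.34). Enpp2 (autotaxin) was at 2098 and 2542 CPM with vehicle, 1226 and 1119.8 CPM at day 3, and 2271 and 2050 CPM at day 7, with both day 3 libraries below the other 4 (log2 difference -0.96, SE 0.18, adjusted p = 0.0286). Cxcl12, a chemokine for CXCR4, was at 253 and 178 CPM with vehicle, 76.7 and 112 CPM at day 3, and 151 and 177 CPM at day 7, again lowest in both day 3 libraries (log2 difference -1.17, SE 0.23, adjusted p = 0.0331). Apoe, the lipid carrier, was at 2850.5 and 4081 CPM with vehicle, 1064 and 839 CPM at day 3, and 4573 and 1517 CPM at day 7, and the day 7 Cre-positive library came nearest to the day 3 pair (log2 difference -1.91, SE 0.43, adjusted p = 0.0437). Ccl21a was at 6329 and 5561 CPM with vehicle, 4639 and 4152 CPM at day 3, and 8188 and 4010.2 CPM at day 7 and was not called (log2 difference -0.41, SE 0.25, adjusted p = 0.337). Ackr1 was higher in both day 3 libraries than in the other 4 but missed the threshold (log2 difference 0.53, SE 0.15, adjusted p = 0.072). Leaving out 1 library left 0 to 5 of these 10 called lower, 0 without the day 3 Cre-negative, 1 without the day 3 Cre-positive and 5 without the vehicle Cre-negative library, and 1 was called higher without the vehicle Cre-positive library. The median ranged from -0.69 to -0.22. When the Y-linked term was added none was called, the list's median was 0.29 and the sign of Apoe turned (1.64).

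Adhesion molecules for rolling and arrest gave few calls in the fit of all 6 libraries. Of 11 in the list, Jam3, a junction protein, fell (log2 -1.0, adjusted p = 0.0331), 1 of 11 beside 2.11% of all genes called lower. P-selectin (Selp) was at 509 and 576 CPM with vehicle, 1020.4 and 867 CPM at day 3, and 499.6 and 227 CPM at day 7: the day 3 libraries were the highest, yet the difference was not called (log2 difference 0.80, SE 0.29, adjusted p = 0.13). Its detection at 2000 UMIs per cell was 26.2 and 24.9% with vehicle, 53.7 and 50.2% at day 3, and 31 and 20.3% at day 7, beside at most 0.809% in B-like cells. Icam1 was at 531 and 836 CPM with vehicle, 303 and 332 CPM at day 3, and 665 and 434 CPM at day 7, with the day 3 pair lowest and no call (log2 difference -1.08, SE 0.29, adjusted p = 0.0645). E-selectin was at 375 and 406 CPM with vehicle, 419 and 349 CPM at day 3, and 298 and 185 CPM at day 7. Vehicle and day 3 overlapped, and both day 7 libraries lay below them. Of 10 genes of the lymphotoxin receptor and NF-kB list, Birc3, a ubiquitin ligase of the pathway, and Nfkbia, its inhibitor, fell (2 of 10, beside 2.11% of all genes, with a median of -0.50). Birc3 was at 330.2 and 361 CPM with vehicle, 133 and 107 CPM at day 3, and 345 and 182 CPM at day 7 (log2 difference -1.53, SE 0.25, adjusted p = 0.0262). Ltbr, the receptor itself, was not called (log2 difference 0.26, SE 0.18, adjusted p = 0.39). These calls depended on which libraries entered the fit. In the adhesion list none was called without either day 3 library, 4 were called lower without the vehicle Cre-negative library, and 3 lower and 1 higher without either day 7 library. In the NF-kB list 0 to 6 were called lower, 0 without the day 3 Cre-negative and 6 without the vehicle Cre-negative library. With the Y-linked term the medians were 0.35 for adhesion and 0.63 for the NF-kB list, the signs of Jam3 (0.19), Birc3 (0.32) and Nfkbia (0.89) turned, and 1 other member of the adhesion list was called as higher.

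Some sterol and folding genes rose at day 3. Of 19 measured genes of cholesterol synthesis, a list chosen after its values were seen, 8 were called higher (beside 3.1% of all genes) and none lower, with a median of 1.2. Fdps, which makes farnesyl diphosphate, was at 18.6 and 23.3 CPM with vehicle, 69.8 and 70.9 CPM at day 3, and 19.1 and 38.1 CPM at day 7, with both day 3 libraries above the others (log2 difference 1.79, SE 0.22, adjusted p = 0.0116). Idi1, which acts one step earlier, and Insig1, which retains the sterol sensor of the pathway, rose by log2 1.5 and 1.29. In the endoplasmic reticulum list, Hspa5, Manf, Sdf2l1 and Creld2 rose (4 of 18, beside 3.1% of all genes) and none fell (median 0.47). Manf, a factor induced by misfolded protein, was at 143 and 148 CPM with vehicle, 409 and 269 CPM at day 3, and 184 and 156 CPM at day 7 (log2 difference 1.21, SE 0.18, adjusted p = 0.0197), and the chaperone Hspa5 at 466 and 394 CPM with vehicle, 839 and 547 CPM at day 3, and 513 and 365 CPM at day 7 (log2 difference 0.68, SE 0.16, adjusted p = 0.0485). With 1 library left out 1 to 13 sterol genes and 0 to 9 folding genes were called higher and none lower, the fewest without the day 3 Cre-negative and the most without the vehicle Cre-negative library. With the Y-linked term none was called, the medians were 0.55 and 0.54, and the sign of Idi1 turned (-0.11). In other endothelial cells the sterol list summed to 364 and 299 CPM with vehicle and 493 and 412 CPM at day 3. The folding list summed there to 3038 and 2340 CPM, then 3713 and 3099 CPM. In the comparison of changes given below, no gene of either list was called (medians 0.37 and -0.02), beside 0.732% of all genes.

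Several early response genes were called lower. Of 14 in the early response and heat shock list, 6 fell (Fos, Fosb, Egr1, Ier2, Zfp36 and Btg2), beside 2.11% of all genes, and none rose, with a median of -0.92. Fosb was at 339 and 310.4 CPM with vehicle, 42.0 and 89.5 CPM at day 3, and 308 and 214 CPM at day 7, and Nr4a1, a nuclear receptor of the same response that stands outside the list, at 228 and 145 CPM with vehicle, 37.5 and 43.8 CPM at day 3, and 169 and 91.4 CPM at day 7. Both were lowest in the 2 day 3 libraries (Nr4a1: log2 difference -2.13, SE 0.27, adjusted p = 0.0116). In other endothelial cells the list summed to 6752 and 10978 CPM with vehicle and 4490 and 6145 CPM at day 3. In the comparison of changes given below, 1 of 14, Egr1, had a more negative change in HEV cells (median -0.43), beside 0.567% of all genes. With 1 library left out 1 to 11 of the 14 were called lower and 0 to 3 higher, the fewest without the day 3 Cre-negative library, and with the Y-linked term none was called (median -0.06). Of 6 class II presentation genes, H2-Aa, H2-Eb1 and Cd74 fell (3 of 6, beside 2.11% of all genes, median -0.99). H2-Aa was at 53.6 and 51.1 CPM with vehicle, 16.4 and 13.0 CPM at day 3, and 36.0 and 20.5 CPM at day 7 in HEV cells and at 218 to 521 CPM in free RNA (log2 difference -1.83, SE 0.23, adjusted p = 0.0121). Free RNA was subtracted at a share set from T and B cell genes, after which 3 of these genes were again called. The cells had been chosen without UMIs of Ptprc, Cd79a and Cd3e, which can lower that share. The subtraction thus does not measure the part of free RNA in this result. In the class II list 1 to 4 of the 6 were called lower with 1 library left out, and with the Y-linked term none (median -0.83). Markers of B cells, which make class II, were also lower at day 3 than with vehicle in HEV cells of both labels. Their sum was 62.9 and 16.4 CPM with vehicle, 5.39 and 11.9 CPM at day 3, and 7.81 and 29.1 CPM at day 7. The day 7 Cre-positive sum lay above its vehicle sum, unlike H2-Aa. The part of these markers in the class II result was not tested.

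Several genes outside the lists also changed at day 3. Vcan, the matrix proteoglycan versican, was at 9.32 and 16 CPM with vehicle, 90.7 and 67.0 CPM at day 3, and 10.2 and 12.7 CPM at day 7 (log2 difference 2.65, SE 0.27, adjusted p = 0.00782), and it was detected in 114 and 65 HEV cells at day 3 and in 6 to 29 cells of the other libraries. Sparcl1, a matrix protein of mature vessels, was at 324 and 241 CPM with vehicle, 74.6 and 77.1 CPM at day 3, and 195 and 218 CPM at day 7, with the day 3 pair below all others (log2 difference -1.86, SE 0.17, adjusted p = 0.00782). Ltbp4, which holds latent TGF-beta in the matrix, was at 68.0 and 102 CPM with vehicle, 21.8 and 24.6 CPM at day 3, and 81.4 and 64.8 CPM at day 7 (log2 difference -1.85, SE 0.25, adjusted p = 0.0133). Tnfsf15 was at 37.7 and 68.5 CPM with vehicle, 12.1 and 12.4 CPM at day 3, and 51.6 and 17.2 CPM at day 7 (log2 difference -2.13, SE 0.51, adjusted p = 0.0495), and the monooxygenase Fmo2 fell by 2.45 on the log2 scale. Tagln, a smooth muscle and endothelial actin-binding gene, also fell (log2 difference -3.70, SE 0.67, adjusted p = 0.0278). In the vehicle Cre-positive library its 512 UMIs lay in 56 cells. Pericyte and smooth muscle markers summed to 33.0 and 27.1 CPM with vehicle, 10.8 and 3.11 CPM at day 3, and 1.59 and 1.23 CPM at day 7. Tagln had 24 and 34 UMIs at day 3 and 291 and 68 at day 7. Of the marker Acta2, 1 cell held 36 of 38 and 61 of 62 UMIs in the vehicle libraries. The part of these markers in the Tagln result was not tested. With the Y-linked term the signs of Tagln (1.42), Fmo2 (1.03) and Tnfsf15 (1.99) turned.

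By day 7 no gene was called against vehicle (0 of 11150, 0.0%). Unadjusted p-values lay under 0.05 for 381 genes, and DESeq2 called 1. Leaving out 1 library gave 353 and 29 calls without the vehicle libraries, 3 and 4 without the day 3 libraries, and 18 and 10 without the day 7 libraries. The direct comparison of day 7 with day 3 called 134 genes (1.2%), 52 higher and 82 lower at day 7. It shares libraries with the comparisons above and is no separate evidence for them. Vcan (log2 difference -2.79, SE 0.26, adjusted p = 0.0173), Cxcl10 (log2 difference -2.36, SE 0.20, adjusted p = 0.0144), Cxcl9 (log2 -2.0) and Il6 (log2 -1.61) were lower at day 7 than at day 3. So were 6 of 18 cell cycle genes, 4 of 19 sterol genes, and 2 of 18 folding genes (Manf and Sdf2l1), beside 0.735% of all genes. Of the early response and heat shock list, Fosb, Egr1, Ier2 and Zfp36 were higher (4 of 14, beside 0.466% of all genes). The heat shock chaperone Hspa1b was lower (log2 difference -1.62, SE 0.27, adjusted p = 0.0389), 1 of 14 beside 0.735% of all genes. Also higher were Sparcl1 (log2 difference 1.46, SE 0.17, adjusted p = 0.0301) and Ltbp4 (log2 1.72). Hmox1, the heme-degrading oxygenase, was at 17.5 and 22.3 CPM with vehicle, 77.0 and 42.4 CPM at day 3, and 16.7 and 18.4 CPM at day 7 and was lower at day 7 (log2 difference -1.75, SE 0.27, adjusted p = 0.0327). With 1 library left out 0 to 17 cell cycle genes, 0 to 9 sterol genes and 0 to 7 folding genes were called lower at day 7, none of them without the day 3 Cre-negative library. The count over all genes was 6 without the day 3 Cre-negative library, 59 without the day 7 Cre-negative library, and 610, 1329 and 1716 without the day 7 Cre-positive, vehicle Cre-positive and vehicle Cre-negative libraries. The cell cycle list had a positive day 7 difference from vehicle in 18 of 18 genes (median 0.74), none of them called in the fit of all 6 libraries and at most 4 with 1 left out.

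Part of the day 3 response differed between HEV cells and other endothelial cells of the same libraries. In the fit of 12 sums with library as a block, the day 3 change differed in 111 of 15155 genes (0.732%), 25 (0.165%) with a more positive change in HEV cells and 86 (0.567%) with a more negative one. The reference held lymphatic cells, with a Prox1 UMI in 744 of 4453 and 691 of 4136 cells with vehicle, 450 of 3665 and 571 of 5446 at day 3, and 1006 of 4210 and 980 of 3523 at day 7. Against reference cells with no Prox1 UMI 54 genes were called, 48 of them among the 111. Of the 20 genes with the largest differences by the naming rule, 16 were called there and all 20 had the same direction. The capillary list in other endothelial cells summed to 15265 and 11504 CPM with vehicle, 15967 and 8633 CPM at day 3, and 6914 and 11107 CPM at day 7. The reference thus differed between libraries in capillary transcripts as well, and the part of this in the calls was not tested. Cxcl10 was at 71.4 and 82.2 CPM with vehicle, 61.3 and 128 CPM at day 3, and 51.8 and 109 CPM at day 7 in other endothelial cells, and its change was more positive in HEV cells (log2 difference 1.65, SE 0.29, adjusted p = 0.0205). Vcan was at 2.54 to 6.79 CPM in other endothelial cells (log2 difference 1.58, SE 0.28, adjusted p = 0.0241). Gbp2 stood at 22.1 and 27.5 CPM with vehicle and 41.6 and 51.7 CPM at day 3 in HEV cells, and at 65.7 and 72.2 and 55.9 and 57.3 CPM in other endothelial cells (log2 difference 1.11, SE 0.19, adjusted p = 0.0211). All 3 rose in HEV cells. In other endothelial cells Gbp2 was lower in both day 3 libraries than with vehicle, Cxcl10 was lower in one label and higher in the other, and Vcan was higher in both labels from a lower level.

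Cxcl12 and Sparcl1 showed the opposite pattern. Cxcl12 was at 2009 and 1488 CPM with vehicle, 1974 and 2295 CPM at day 3, and 1416 and 1429 CPM at day 7 in other endothelial cells, where vehicle and day 3 overlapped, and its change was more negative in HEV cells (log2 difference -1.57, SE 0.16, adjusted p = 0.0005). Sparcl1 was at 798 and 648 CPM with vehicle, 557 and 524 CPM at day 3, and 621 and 549.6 CPM at day 7 there (log2 difference -1.55, SE 0.15, adjusted p = 0.0005), and Adamts1, a matrix protease, at 171 and 214 CPM with vehicle, 239.6 and 279 CPM at day 3, and 173 and 188 CPM at day 7 there against 243 and 217 CPM with vehicle, 83.6 and 123 CPM at day 3, and 182 and 171 CPM at day 7 in HEV cells (log2 difference -1.69, SE 0.18, adjusted p = 0.000892). Ch25h and Sele were low in other endothelial cells and higher there at day 3 (12.6 and 14.6 to 33.3 and 59.3 CPM, and 20.2 and 34.1 to 78.4 and 53.3 CPM), while HEV cells stood at 141 and 145 and then 172 and 175 CPM of Ch25h. Their differences of change were -1.52 and -1.41 (adjusted p = 0.0034 and 0.0146). No cell cycle gene was called in this comparison with all 6 libraries, yet 11 had a more negative change in HEV cells without the vehicle Cre-negative library and 6 a more positive one without the vehicle Cre-positive library. Birc5 stood at 20.7 and 3.51 CPM with vehicle and 65.8 and 73.6 CPM at day 3 in other endothelial cells. The fall of Cd300lg was larger in HEV cells (log2 difference -0.84, SE 0.15, adjusted p = 0.0241), which was not called against Prox1-negative reference cells, and that of Enpp2 was not called as different (log2 difference -0.51, SE 0.17, adjusted p = 0.234). The count was 8 without the day 3 Cre-positive library, 189 without the day 3 Cre-negative library, and 289, 601 and 596 without the vehicle Cre-negative, day 7 Cre-negative and day 7 Cre-positive libraries. Of the 20 largest differences named above, 3 were called without the day 3 Cre-positive library and 15 without the day 3 Cre-negative library, and all 20 had the same direction in both. At day 7 the change differed for 1 gene (0.0066%), the smooth muscle actin Acta2, whose HEV UMIs lay in at most 2 cells of a library. That count was 55 and 42 without the vehicle libraries, 62 and 0 without the day 3 libraries, and 232 and 59 without the day 7 libraries.

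**Figure D4:**
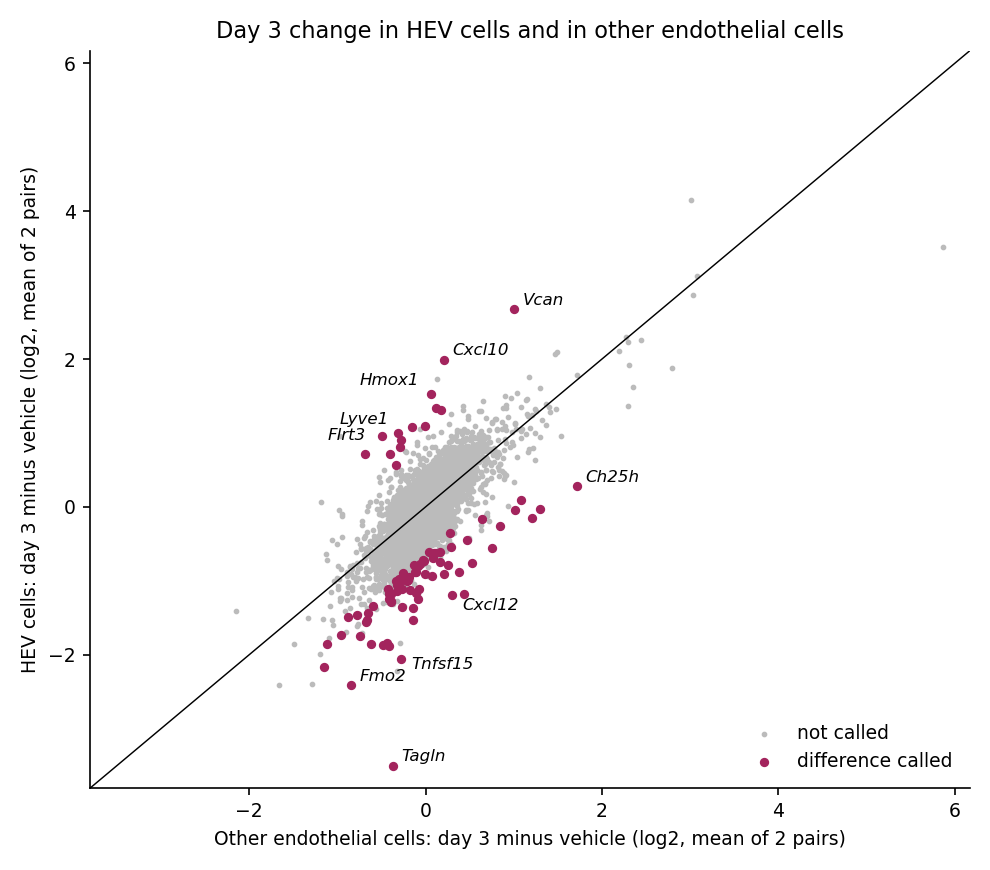
Day 3 change from vehicle in HEV cells (vertical) against that in other endothelial cells (horizontal), both log2, for 6065 genes with a mean of at least 20 CPM in HEV cells and a value above 0 in every library. The line marks equal change, and the 87 drawn genes called for a difference of change include Cxcl10 and Vcan above it and Cxcl12 and Tagln under it.

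Between labels HEV cells differed in 1 called gene of 11150 (0.00897%). Unadjusted p-values lay under 0.05 for 499 genes, and DESeq2 called 5. Phlda3, a p53-induced inhibitor of AKT, was at 9.32 and 41.8 CPM with vehicle, 19.2 and 77.7 CPM at day 3, and 10.7 and 45.1 CPM at day 7, higher in the Cre-positive library of every treatment (log2 difference 2.03, SE 0.14, adjusted p = 0.00389). It was called with each library left out in turn, when the number of calls became 309 and 147 without the vehicle libraries, 7 and 10 without the day 3 libraries, and 23 and 31 without the day 7 libraries. Of the 12 measured p53 targets 1 to 9 were called with 1 library left out. All 12 had a positive label difference (median 0.93 beside 0.01 for all genes), and their sum was 331 and 687 CPM with vehicle, 372 and 776 CPM at day 3, and 380 and 577 CPM at day 7. Other endothelial cells had sums of 411 and 593, 435 and 647, and 396 and 731 CPM, and no p53 target was called for a label difference that differed between the classes, against 3 without either day 7 library (0 of 15155 genes called, 0.0%; unadjusted p-values lay under 0.05 for 655, and DESeq2 called 0). With a library left out this count was 31 and 42 for the vehicle, 65 and 0 for the day 3 and 124 and 122 for the day 7 libraries. For treatment, 3 of the 12 p53 targets (Phlda3, Bax and Aen) were called higher at day 3 than with vehicle, beside 3.1% of all genes. The day 3 median of the 12 was 0.06, and 7 of them had a positive difference. Between labels Serpine2, a protease inhibitor with the second lowest p, was not called (log2 difference 1.27, SE 0.15, adjusted p = 0.106). Folding genes had a negative label difference in 18 of 18 (median -0.32), and Atg12 itself was at 44.7 and 47.0 CPM with vehicle, 44.2 and 48.6 CPM at day 3, and 43.5 and 41.0 CPM at day 7 (log2 difference -0.00, SE 0.13, adjusted p = 1). Where the floxed part lies relative to the counted 3' end is not given in the sources used here, so this Atg12 value is not used as a check of the labels. No HEV mucin, enzyme, homing or adhesion gene and none of 20 autophagy genes was called between labels. Without the vehicle Cre-negative library 2 scaffolds, 1 enzyme, 3 homing and 3 adhesion genes were called, and without the vehicle Cre-positive library 2, 1, 2 and 2.

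**Figure D5:**
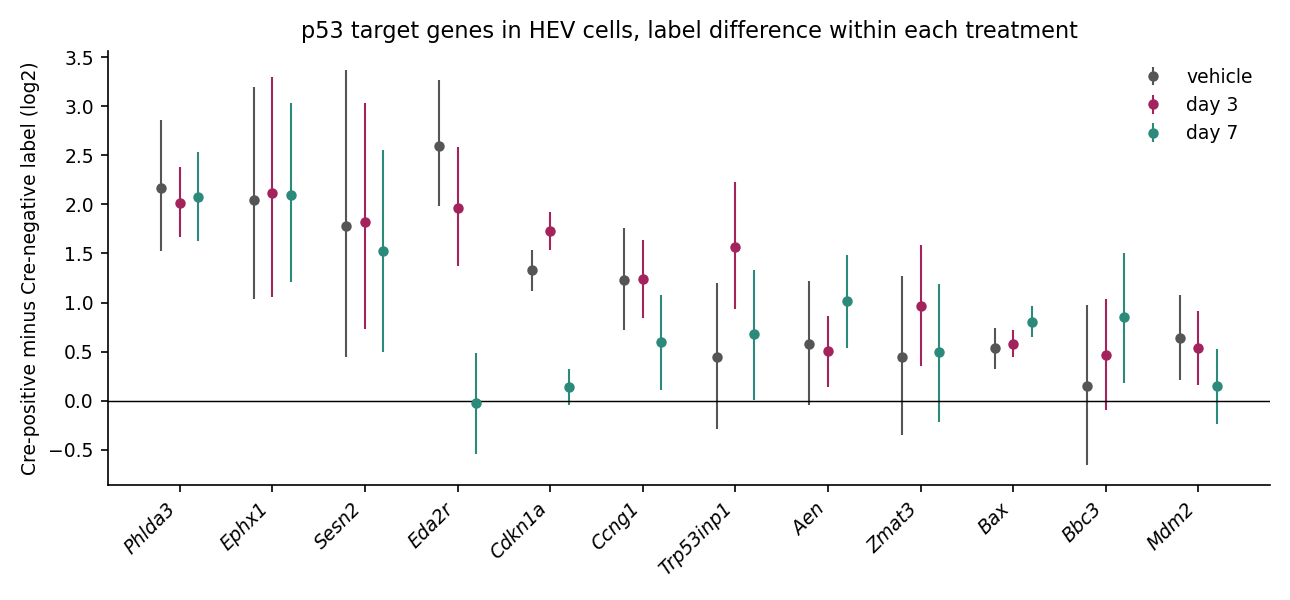
Label difference (log2 of Cre-positive over Cre-negative CPM) of 12 p53 targets in HEV cells for each treatment, with 95% intervals for counting error only. Phlda3 is above 0 at vehicle, day 3 and day 7.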

How the data were processed

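Lymph node cells of 6 groups were profiled with 10x Genomics 3' kits, per the labels' protocols. The deposited values are UMI counts per gene and barcode, made with Cell Ranger 7.0.1 against mm10 per the submitters' processing notes, while the file headers give software version 4. The deposited counts were unfiltered, so cells were chosen as stated above, and only the 6 CD31 libraries were used for comparisons. UMIs were summed over HEV cells (223, 276, 336, 274, 523 and 202 cells in the order of the text) and tested with edgeR 4.0.16 (quasi-likelihood F test, TMM, filterByExpr, Benjamini-Hochberg adjustment over all genes tested, threshold 0.05) for treatment and genotype label together. With 1 library per group no p-value measures the spread between mice of a group. The comparison with other endothelial cells added their sums, with library as a block and terms for class, class by day and class by label. DESeq2 1.42.0, other member rules, thinning and left-out libraries were alternatives. For detection shares each cell was thinned to 2000 UMIs, which left out 0 to 3 HEV cells and 288 to 1302 other endothelial cells per library. Free RNA was read from barcodes of 10 to 100 UMIs. Doublet scores (Scrublet in scanpy 1.11.5) marked 0.495 to 5.16% of HEV cells, which were kept except in 1 alternative. Motifs were searched on both strands of RefSeq promoter windows. Levels between genes were not compared.

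Named genes had a mean of at least 20 CPM, were called with the same direction in every pair, and were the 10 with the largest change in each direction (for levels 15 higher and 10 lower, and where fewer than 5 were called the 5 with the lowest p), along with members of the gene lists. The HEV rule, the lists and the tests were chosen with earlier results of these data known. The cholesterol list and the Y-linked term were added after seeing the values used here. Whether gene counting used strand is not given in the sources used here, so overlapping and antisense genes may share UMIs.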

Additional observations from a re-analysis of the deposited data

Results flagged for a closer look

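The following 20 genes changed differently at day 3 in HEV cells and in other endothelial cells of the same libraries, by the interaction term of edgeR's quasi-likelihood fit. The log2 difference of change was positive for Cxcl10 (1.65), Vcan (1.58), Hmox1 (1.40), Dusp2 (1.34), Flrt3 (1.31), Lyve1 (1.27), Gm4841 (1.16), Cxcl9 (1.13), Gbp2 (1.11) and Mustn1 (1.06). It was negative for Tagln (-3.32), Tnfsf15 (-2.0), Adamts1 (-1.69), Fmo2 (-1.65), Cxcl12 (-1.57), Sparcl1 (-1.55), Ch25h (-1.52), Ltbp4 (-1.51), C1qtnf9 (-1.45) and Depp1 (-1.44). Lyve1, a receptor better known from lymphatic vessels, was at 21.4 and 27.8 CPM with vehicle, 71.3 and 33.6 CPM at day 3, and 19.8 and 30.7 CPM at day 7 in HEV cells, which had no Prox1 UMI by the rule. Against other endothelial cells with no Prox1 UMI its difference was 0.34 and was not called.

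A few genes moved in opposite directions in the 2 labels, and this difference was not tested, because each label has 1 library per treatment. Glycam1 at day 7 was higher than vehicle by log2 1.64 in the Cre-negative pair and lower by -0.65 in the Cre-positive pair. Gcnt1 at day 7 changed by 0.74 and -0.85, and Apoe at day 7 by 0.68 and -1.43. Ackr3, a scavenger of CXCL12 with 3.48 to 11.7 CPM in HEV cells, changed by -1.51 and 1.28 at day 3 and by -1.33 and 1.24 at day 7. The intervals of each change exclude 0 for counting error only, which leaves out the spread between cells and between mice.

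A transcript named mRFP, a red fluorescent protein that the labels do not mention, was present in the Cre-positive libraries. It was detected in 13.4% of HEV cells with vehicle, 27.4% at day 3 and 8.42% at day 7 (exact 95% intervals 9.62 to 18.0, 22.2 to 33.1 and 4.98 to 13.1). Other endothelial cells had 5.54, 9.27 and 6.73%, at a lower depth, and cells outside the endothelial rule 1.31, 1.95 and 0.568%. Of the Cre-negative libraries, only that of day 7 listed the transcript, with 0 of 523 HEV cells, which allows a share of cells with a UMI of up to 0.703% and sets no limit on cells that express it.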

How the results depend on the processing

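The labels carry no replicate numbers, and each combination of genotype label and treatment has 1 library, so no fit had a replicate number as a term. Treatments were compared with genotype label as a term, so libraries of the same label were set against each other. HEV and other endothelial sums of the same library were compared with library as a block. With 2 residual degrees of freedom, and 1 where a library was left out or the Y-linked term added, counts of called genes moved widely. At day 3 against vehicle (581 genes) DESeq2 called 365, no low-count filter 1801, a member rule of at least 3 UMIs 387, thinning to 2000 UMIs 247, only cells with a Y-linked UMI 87 and the Y-linked term 14. At day 7 against vehicle (0) the values were 1 with DESeq2 size factors, 1 with DESeq2, 59 without filter, 2 after subtracting free RNA, 1 without the label term and 27 with the Y-linked term. For day 7 against day 3 (134) they were 1026 without filter, 351 with a rule of at least 1 UMI, 56 in cells with a Y-linked UMI and 931 with the Y-linked term, the 134 all among them. Between labels (1) they were 5 with DESeq2, 113 without filter, 2 with a rule of at least 1 UMI, 2 after subtracting free RNA, 9 without cycling cells and 45 with the Y-linked term. For the day 3 change against other endothelial cells (111) they were 54 with DESeq2 size factors, 54 with DESeq2, 444 without filter, 67 without cycling cells, 57 in cells with a Y-linked UMI and 54 with Prox1-negative reference cells. For the day 7 change (1) they were 0 with DESeq2, with rules of at least 3 UMIs or 1 UMI, without scored doublets, without cycling cells and with a stricter immune exclusion, 68 without filter, 2 after subtracting free RNA, 4 thinned, 8 in cells with a Y-linked UMI and 3 with Prox1-negative reference cells. For the label difference (0) they were 80 without filter, 1 with a rule of at least 3 UMIs, 1 after subtracting free RNA, 7 thinned, 1 without cycling cells and 15 in cells with a Y-linked UMI. Leaving out 1 library gave 64 to 2421, 3 to 353, 6 to 1716, 7 to 309, 8 to 601, 0 to 232 and 0 to 124 calls for these comparisons in turn. The causes were not tested.

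The HEV share was 1.66, 2.11, 2.84, 1.69, 3.69 and 1.52% after thinning and, over Prox1-negative endothelial cells, 5.49, 7.20, 9.15, 13.2 and 7.08% in the libraries other than day 3 Cre-positive. After thinning 665 genes were counted lower in HEV cells, beside 1343 without it. With the Y-linked term the day 3 difference reversed for Cyp51 (-0.19), Apoe (1.64), Nfkbia (0.89), Mcm6 (-0.26), Optn (0.064), Jam3 (0.19), Birc3 (0.32), Tagln (1.42), Egr3 (0.13), Acta2 (0.36), Fmo2 (1.03), Tnfsf15 (1.99) and Idi1 (-0.11), and without cycling cells for Mcm5 (-0.22) and, in the comparison with other endothelial cells, Acta2 (2.77). Depth limits genes with few UMIs, such as Madcam1, and the few HEV cells that held Acta2 limit its values.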

Other observations

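The CD45 libraries of the same nodes, meant to hold immune cells, also held a few cells that met the HEV rule: 4 and 2 with vehicle, 3 and 1 at day 3, and 3 and 3 at day 7. They entered no comparison.

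Some transcripts of HEV cells came from very few cells. Prss34, a mast cell and basophil protease, had 547 UMIs in HEV cells of the day 7 Cre-positive library, in 2 cells, 545 of them in 1 cell. Hamp, the iron hormone hepcidin, was detected in 17 and 30 HEV cells with vehicle, 48 and 33 at day 3, and 41 and 7 at day 7. Csf3, the granulocyte colony-stimulating factor, was detected in 8 and 24, 18 and 34, and 31 and 6 cells. Hamp had a median log2 ratio of 4.87 to other endothelial cells, and Csf3 one of 5.10.

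Apln, a peptide of sprouting endothelium, was at 0.388 and 2.78 CPM with vehicle, 4.10 and 16.7 CPM at day 3, and 2.07 and 6.56 CPM at day 7 in HEV cells (1 UMI in the vehicle Cre-negative library) and rose at day 3 (log2 difference 2.70, SE 0.45, adjusted p = 0.0262), the only called gene of 4 measured in the tip-like list, beside 5.21% of all genes. It was also the only 1 of the 4 with a positive difference, and the list's median was -0.42. The VEGF receptor Flt1 fell (log2 difference -0.74, SE 0.15, adjusted p = 0.0348), the 1 called gene of 10 in the pan-endothelial list, beside 2.11% of all genes called lower. Neither list had a call without either day 3 library, and the tip-like list had 1 higher and 3 lower without the vehicle Cre-negative library.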
